A study of Saccharomyces cerevisiae with 6 samples.

Results

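The genes described here lie on the left arm of chromosome V of Saccharomyces cerevisiae, which both strains of the study carry as the synthetic chromosome synV. The members are the genes of the count and FPKM tables whose identifier belongs to a locus tag beginning with YEL in the R64 assembly, without VAC8, GLC3, GCN4, GTT3, PMP2, DLD3, RPL12A, VMA8, RIP1, UTR2, CYC7, HYP2 and MCM3. This gave 65 of the 6442 genes listed. Counts were found for 62 members in at least 1 library, and 59 members passed the filter on low counts and were tested.

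Total RNA was sequenced from 3 libraries of the group labelled S3 and from 3 libraries of the group labelled H0, all from flask cultures grown for 12 h at 30 °C. S3 was taken as yJBH012, a single clone obtained by SCRaMbLE whose described rearrangement is a deletion of the segment from YEL014C to YEL013W (VAC8). H0 was taken as its parent yJBH000, since the methods describe the transcriptomes of no other strains. Both groups are haploid synV strains derived from BY4741, a MATa laboratory strain with deletions of URA3, LEU2, MET15 and HIS3, and both carry the carotenoid genes crtE, crtI and crtYB with a LEU2 marker, integrated at the CAN1 locus. S3 is 1 clone, so that effects of the deletion and of any other difference between the clone and its parent cannot be told apart. The sources do not say whether the libraries of a group came from separate cultures, and p-values therefore measure only the spread between these libraries.

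In synV the native sequence was rewritten by design, and loxPsym sites were placed after non-essential genes. Cre recombinase joins pairs of these symmetrical sites, which can delete, invert, duplicate or move the segments between them, a process called SCRaMbLE. The left arm of chromosome V holds genes of many functions, among them the arginine permease gene CAN1 and the uracil marker gene URA3, both widely used for selection in yeast. Genes close to a yeast telomere often belong to families with nearly identical copies at other chromosome ends, so that reads from them can be shared between copies. Neighbouring yeast genes transcribed away from each other can share the stretch between their starts.

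The libraries held 17675299 to 21568860 counts in S3 and 23340054 to 25333938 counts in H0. The members took 0.552% to 0.57% of the counts in S3 and 0.655% to 0.681% in H0. Values are given as CPM, counts scaled to a common library total after adjustment of library sizes by the TMM method, and levels of different genes are compared only as FPKM, which divides by gene length. Replicate 1 of H0 stood apart, with a chi-square per degree of freedom over all genes of 83.2 and 85.4 against the other H0 libraries, which gave 7.13 between themselves. It was the H0 library farthest from the other H0 libraries for 40 of 58 members. The 7 a-specific mating genes summed to 7970 to 8952 FPKM in S3 and 5857 to 6163 FPKM in H0, and the 4 alpha-specific genes to 44 to 57.7 FPKM in S3 and 71.3 to 76 FPKM in H0, so that a-specific transcripts were far more abundant in both groups. The higher a-specific sum in S3 came from the pheromone genes MFA1 and MFA2. STE2, STE6, BAR1 and AGA2 had lower FPKM in every S3 library than in any H0 library, and the ranges of ASG7 overlapped.

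The first question was what the libraries show at the deleted segment, where YEL014C is the only member. YEL014C, an open reading frame known only by its locus tag, had 0 counts in each of the 3 S3 libraries, against 84, 83 and 82 counts in the H0 libraries. The groups did not overlap. With the limit of 3 counts per library that a count of 0 allows, YEL014C was at least 17.4-fold lower in S3, against 3.06 ± 0.12 CPM in H0 (SD, n = 3). Reads carry no molecular identifiers, so this limit covers counting error only. In the R64 annotation YEL014C runs on the minus strand, toward EDC3 (YEL015W), and only 18 bases separate the ends of the genes. On its other side lies VAC8, 216 bases away, and then UBC8 (YEL012W), 1210 bases beyond VAC8. The ends of EDC3, YEL014C and VAC8 are printed in the native R64 sequence of RefSeq. The first stretch shows how close the kept gene EDC3 lies to the lost YEL014C. The second shows only the end of VAC8. Capitals mark the stop codon of EDC3, TAA, the stop codon of YEL014C read on the other strand, CTA, and the stop codon of VAC8, TGA. The strains carry the rewritten synV, whose sequence was not used here.
EDC3 and YEL014C ends, chrV:128225-128362, plus strand: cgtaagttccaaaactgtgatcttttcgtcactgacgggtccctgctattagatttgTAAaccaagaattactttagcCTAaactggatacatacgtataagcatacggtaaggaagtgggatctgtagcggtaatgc
VAC8 end, chrV:130502-130561, plus strand: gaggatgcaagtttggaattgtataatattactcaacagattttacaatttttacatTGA

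The members that flank the segment were still counted in S3. EDC3, which encodes an activator of mRNA decapping, had 202, 185 and 189 CPM in S3, against 124, 131 and 130 CPM in H0. All S3 libraries were above all H0 libraries, with a log2 fold change of 0.58 (SE 0.06, adjusted p = 6.96e-05, quasi-likelihood test of edgeR, Benjamini-Hochberg adjusted over 5904 genes, as for all adjusted p-values below). UBC8, on the other side, encodes a ubiquitin-conjugating enzyme with a part in the breakdown of fructose-1,6-bisphosphatase after glucose is added. It had 125, 110 and 119 CPM in S3, against 110, 77.5 and 80.8 CPM in H0. H0 replicate 1 lay almost as high as the lowest S3 library, and the log2 fold change was 0.40 (SE 0.13, adjusted p = 0.0275). Without H0 replicate 1 it was 0.57 (adjusted p = 2.35e-05), while without S3 replicate 1, S3 replicate 3, H0 replicate 2 or H0 replicate 3 the call was lost (adjusted p = 0.0784 to 0.0904). With total counts it was 0.06 without a call (adjusted p = 0.684). NPP2, which encodes a nucleotide pyrophosphatase and lies 410 bases beyond EDC3, had 63.8, 68.8 and 63.9 CPM in S3, against 70.8, 73.6 and 72.9 CPM in H0. The groups did not overlap, but the log2 fold change was small at -0.14 (SE 0.05, adjusted p = 0.0403) and did not pass the test without S3 replicate 1, S3 replicate 3, H0 replicate 2 or H0 replicate 3 (adjusted p = 0.0946 to 0.142).

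Over the arm, 19 of the 59 tested members were higher in S3 and 23 were lower at an adjusted p under 0.05, and 17 were not called. Of all 5904 tested genes 70.5% were called, 34.2% higher and 36.2% lower in S3, so that the shares of the members, 32.2% higher and 39% lower, lay close to those of all genes. The S3 and H0 libraries did not overlap in 71.2% of the tested members, which were the called ones, against 75.5% of all tested genes. The median log2 fold change was -0.12 for the members, also with YEL014C set to its bound, and -0.01 for all tested genes. Without YEL014C it was -0.11. The 197 tested genes of the right arm of the same chromosome had 87 genes higher and 53 lower in S3, with a median of 0.13. Of the 13 left arm genes that were left out, 7 were higher and 3 lower, with a median of 0.28.

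The direction of the smaller differences depends on how libraries are scaled. With total counts in place of TMM factors the median of all genes shifted to -0.35, and 7 members were higher and 37 lower. The shares of all genes called with total counts are not given here, so these counts are not set against them. The share of called members that were higher was 45.2% with TMM factors and 15.9% with total counts. Relative to the median of all genes, the members' median was -0.11 with either scaling, as it must be when all genes move by nearly the same amount. The 7 members still called higher with total counts were POL5, UTR5, MTC7, GLY1, IES6, EDC3 and FRD1, and all 23 members called lower with TMM factors were called lower with total counts. In 10 members the sign changed, 4 of them called higher with TMM factors (MAK10, YEL025C, AFG1 and SPF1). No call turned into the opposite call.

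**Figure D1:**
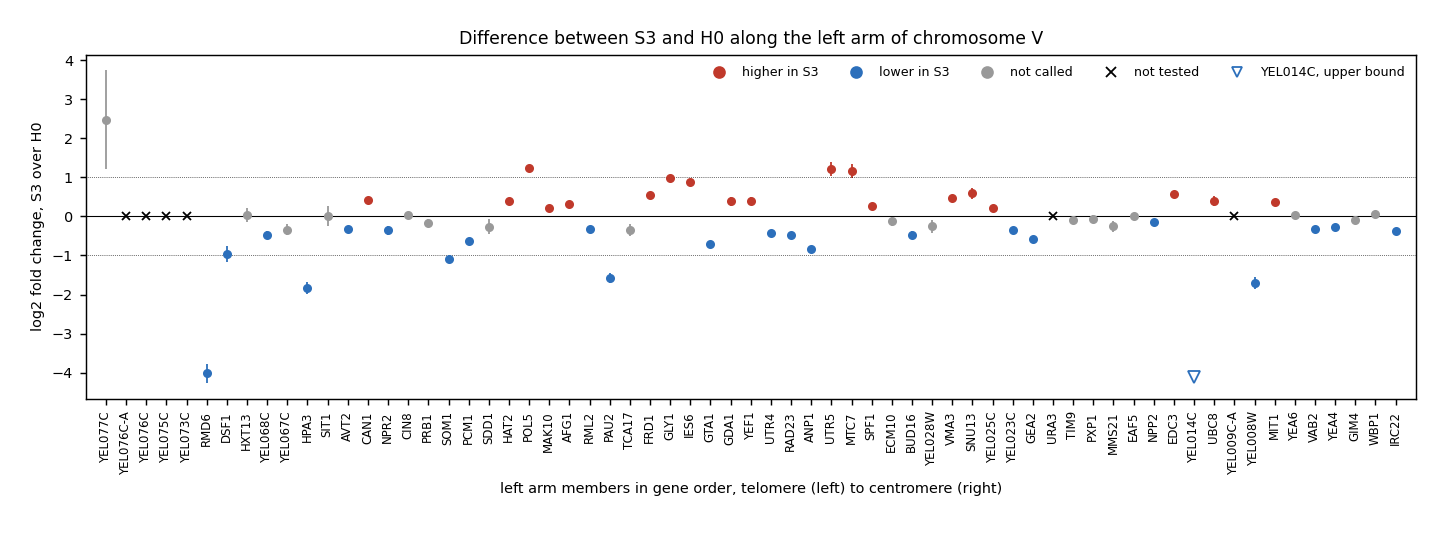
Log2 fold change, S3 over H0, of the 65 members (vertical axis) in gene order from the telomere on the left to the centromere on the right, with bars for the standard error and dotted lines at 1 and -1. Red points are called higher in S3, blue points lower and grey points not called, crosses at 0 mark the 6 members that were not tested, and the open triangle is the bound for YEL014C, with RMD6 the lowest fitted value at -4.01.

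Beyond a 2-fold change, 6 members were lower and 3 were higher in S3, while 4.98% of all tested genes were lower and 10.7% higher beyond this limit. The 6 lower ones were YEL014C, RMD6, HPA3, YEL008W, PAU2 and SOM1, which lie at places 6, 11, 18, 26, 55 and 58 among the 65 members counted from the telomere, in the order RMD6, HPA3, SOM1, PAU2, YEL014C and YEL008W. The 3 higher ones were POL5, UTR5 and MTC7, of which UTR5 and MTC7 are neighbours in the list of members. With total counts none of the 3 kept a log2 fold change above 1.

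RMD6 (YEL072W), a gene needed for sporulation, had the largest fitted decrease after YEL014C. It had 0.3, 0.31 and 0.575 CPM in S3, against 5.77, 6.75 and 6.58 CPM in H0. The S3 libraries were near the limit of detection, and the log2 fold change was -4.01 (SE 0.25, adjusted p = 1.12e-05). The next gene toward the centromere, DLD3, which encodes a 2-hydroxyglutarate transhydrogenase and is no member, had a log2 fold change of -3.84, and 1939 bases lie between both genes in R64.

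HPA3 (YEL066W), which encodes an acetyltransferase acting on D-amino acids, had 3.36, 3.98 and 3.07 CPM in S3, against 10.9, 12.1 and 14.2 CPM in H0. All S3 libraries lay far below all H0 libraries, with a log2 fold change of -1.83 (SE 0.16, adjusted p = 4.36e-05). HPA3 overlaps YEL067C by 56 bases in R64, and reads of the shared stretch cannot be assigned between them without strand. YEL067C had a log2 fold change of -0.34 that did not pass the test (adjusted p = 0.0564). The gene length implied by the tables, 540 bases for HPA3, was longer than its span in R64, while 58 members had their R64 length to within 0.5 base.

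PAU2 (YEL049W) belongs to the seripauperins, a family of cell wall mannoprotein genes known for induction without oxygen. It had 6.83, 7.91 and 8.25 CPM in S3, against 25.7, 20.1 and 22.8 CPM in H0. The groups were well apart, with a log2 fold change of -1.58 (SE 0.13, adjusted p = 3.26e-05). PAU2 is 96.4% identical to PAU12 over its whole length and aligned to 23 other genes at 80% identity or more, so that its counts are uncertain. PAU12 itself had 5, 0 and 6 counts in S3, against 21, 44 and 25 counts in H0.

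YEL008W, an open reading frame without an assigned role, had 2.16, 2.79 and 2.56 CPM in S3, against 8.02, 7.91 and 8.63 CPM in H0, with a log2 fold change of -1.70 (SE 0.15, adjusted p = 4.46e-05). SOM1 (YEL059C-A) encodes a subunit of the inner membrane peptidase of mitochondria. It had 10.3, 9.82 and 9.53 CPM in S3, against 22.4, 20.3 and 20.9 CPM in H0. The libraries of each group were close together, and the log2 fold change was -1.10 (SE 0.09, adjusted p = 2.88e-05).

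POL5 (YEL055C), which encodes a nucleolar protein needed for ribosomal RNA synthesis, had the largest increase among the called members. It had 180, 179 and 164 CPM in S3, against 68.1, 75.7 and 78.2 CPM in H0. Every S3 library was more than 2-fold above every H0 library, and the log2 fold change was 1.24 (SE 0.07, adjusted p = 8.27e-06). UTR5 (YEL035C), of unknown role, had 48, 54 and 40 counts in the S3 libraries, against 32, 36 and 28 counts in the larger H0 libraries, with a log2 fold change of 1.22 (SE 0.17, adjusted p = 0.000514). MTC7 (YEL033W), also of unknown role, had 21.1, 27.4 and 19.9 CPM in S3, against 9.12, 12.8 and 8.66 CPM in H0. Replicate 2 was the highest in both groups, and the log2 fold change was 1.16 (SE 0.19, adjusted p = 0.000933).

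**Figure D2:**
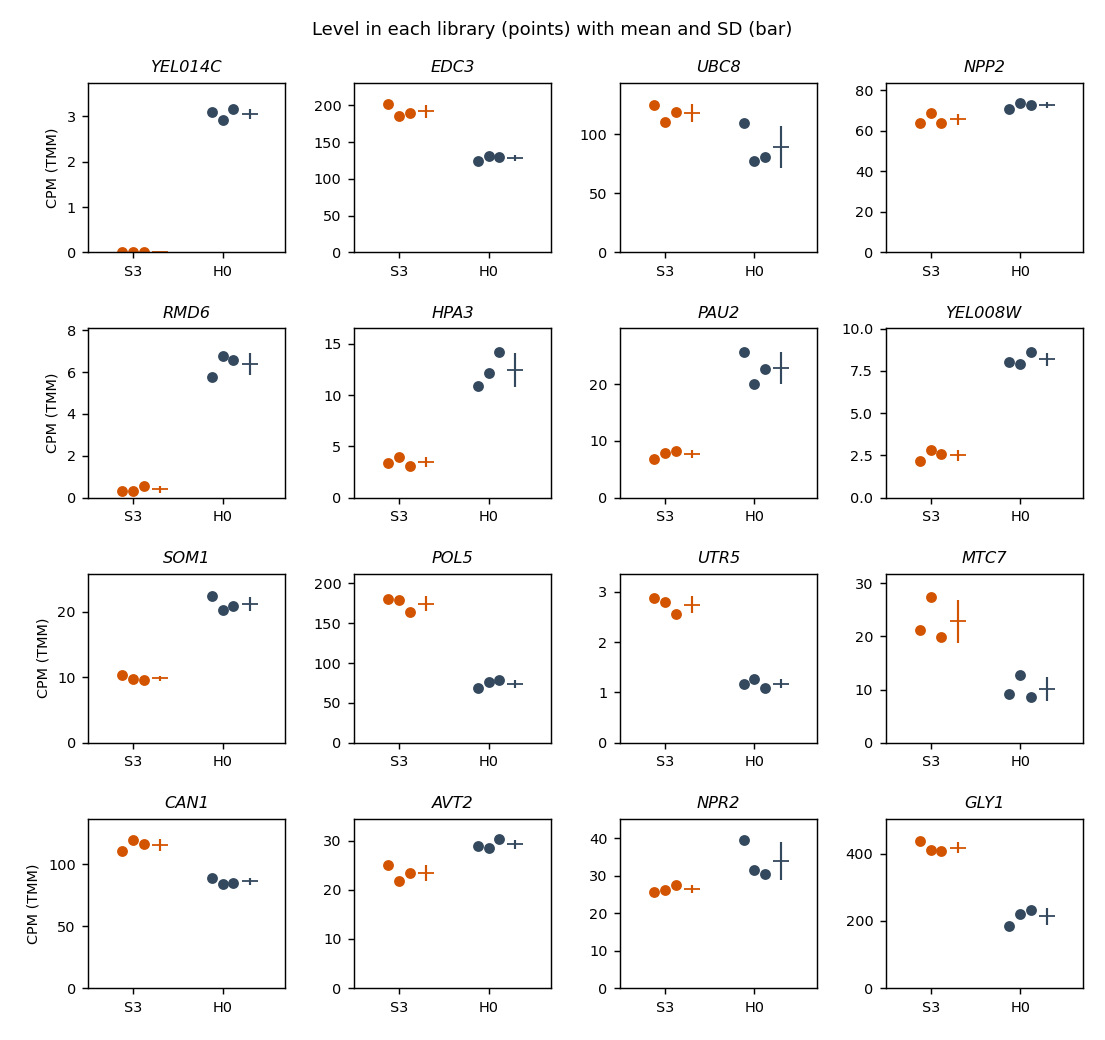
CPM with TMM factors (vertical axis of each panel, starting at 0) in each S3 library (orange, left) and each H0 library (dark grey, right) for 16 members, with the mean and the SD of the 3 libraries beside the points. In all 16 members shown the S3 and H0 points do not overlap, with YEL014C at 0 in all S3 libraries. They were picked from the called members, none of which overlap, and 75.5% of all tested genes do not overlap.

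The native sequences before the start codons of 3 members with large changes are printed to show which short motifs these windows hold. They cover the bases from 300 to 101 before the start codon, 5′ to 3′ on the strand of the gene, in R64 from RefSeq. Capitals mark AGGGG, the core of the stress response element, GATGAG, the core of the PAC motif of ribosome biogenesis genes, and TGACTC, the site of Gcn4, each searched on both strands. No pair of these motifs overlapped in the windows shown. RMD6 and PAU2 are lower in S3 and POL5 is higher.
RMD6, chrV:13420-13619, plus strand: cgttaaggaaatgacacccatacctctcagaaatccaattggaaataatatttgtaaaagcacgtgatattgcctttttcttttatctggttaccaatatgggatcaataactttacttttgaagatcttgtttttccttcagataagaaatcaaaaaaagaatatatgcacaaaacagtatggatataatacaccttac
PAU2, chrV:63428-63627, plus strand: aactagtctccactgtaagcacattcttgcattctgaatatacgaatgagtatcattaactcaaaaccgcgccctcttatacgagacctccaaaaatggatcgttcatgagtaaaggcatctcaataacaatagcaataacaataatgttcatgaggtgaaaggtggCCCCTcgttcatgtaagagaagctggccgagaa
POL5, chrV:51640-51839, minus strand: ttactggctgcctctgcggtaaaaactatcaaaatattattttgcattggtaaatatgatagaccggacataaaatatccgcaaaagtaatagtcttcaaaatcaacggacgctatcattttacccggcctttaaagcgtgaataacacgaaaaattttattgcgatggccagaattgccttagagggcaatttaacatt

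The window of PAU2 held 1 stress response element, and those of RMD6 and POL5 held none of the 3 motifs. Over the 59 tested members, AGGGG was in 12 windows (20.3%), against 16.5% of 5786 windows of all tested genes. It was in 6 of the 23 members called lower and 0 of the 19 called higher, while over all genes it was in 13.3% of those called lower and 18.8% of those called higher. GATGAG was in 8 member windows, 13.6%, and in 13.5% of all windows. TGACTC was in 1 member window, that of YEL067C, and in 6% of all windows. Such matches describe letters in the native sequence and not bound sites.

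At the locus of the integrated pathway, CAN1 was counted in both groups. The paper used canavanine medium to select for disruption of CAN1 by the integration, so these counts do not show an intact gene. Which part of CAN1 the reads came from was not tested. CAN1 (YEL063C) had 111, 120 and 116 CPM in S3, against 89.1, 83.9 and 85 CPM in H0. The groups did not overlap, with a log2 fold change of 0.42 (SE 0.05, adjusted p = 0.000266), which fell to 0.09 and was not called with total counts (adjusted p = 0.19). Its mean level of 56.2 FPKM over the 6 libraries, which divides by 1773 bases for the gene, stood at the 53.9th percentile of all genes. AVT2 (YEL064C), on the telomere side, encodes a member of the vacuolar amino acid transporter family. It had 25.2, 21.9 and 23.4 CPM in S3, against 28.9, 28.5 and 30.4 CPM in H0, with a log2 fold change of -0.32 (SE 0.07, adjusted p = 0.00623). NPR2 (YEL062W), on the centromere side, encodes a subunit of a complex that restrains the TORC1 kinase when nitrogen is scarce. It had 25.6, 26.2 and 27.6 CPM in S3, against 39.7, 31.5 and 30.6 CPM in H0, where replicate 1 was the highest. The log2 fold change was -0.36 (SE 0.11, adjusted p = 0.02), and the call was lost without S3 replicate 1 or S3 replicate 2 (adjusted p = 0.0772 and 0.0731). Without H0 replicate 1 the value was -0.23 (adjusted p = 0.00852). URA3 (YEL021W), which encodes the decarboxylase of uracil synthesis and is deleted in the parental line, had 0 counts in all 6 libraries.

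Along the arm, the 22 members nearest the telomere included 18 tested ones, of which 3 were higher and 8 lower in S3, with a median log2 fold change of -0.29. The next 22 members, all tested, had 12 higher and 7 lower, with a median of 0.24. Of the 21 members nearest the centromere 19 were tested, with 4 higher, 8 lower and a median of -0.10. Over all tested genes 34.2% were higher and 36.2% lower, and whether a stretch departs from these shares was not tested. With total counts the medians of these stretches were -0.63, -0.09 and -0.43, so that the sign of the middle stretch flipped. The scaling moves all genes by nearly the same amount, so it could not change the order of the stretches.

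Some of the members next to the telomere have close copies elsewhere. RMD6, YEL073C, YEL068C, YEL067C and HPA3 had no similar gene at 80% identity over 100 bases or more. DSF1 (YEL070W), which encodes a mannitol dehydrogenase, had 4.38, 3.1 and 3.07 CPM in S3, against 8.2, 6.11 and 6.31 CPM in H0, with a log2 fold change of -0.97 (SE 0.20, adjusted p = 0.00374). It is 98.9% identical to MAN2 on another chromosome, for which the log2 fold change was -1.72. HXT13 (YEL069C), a polyol and hexose transporter gene 96.5% identical to HXT17, had 4.38, 3.88 and 3.26 CPM in S3, against 4.23, 3.81 and 3.23 CPM in H0. The ranges of both groups were nearly the same for HXT13, and HXT17 had a log2 fold change of 0.14 that was not called. YEL077C, an open reading frame at the chromosome end with 24 similar genes, had 4, 272 and 10 counts in S3, against 41, 14 and 19 counts in H0. Its fitted log2 fold change of 2.48 (SE 1.26, adjusted p = 0.116) was -1.05 without S3 replicate 2 (adjusted p = 0.227). Without S3 replicate 1 it was 3.03 and passed the test (adjusted p = 0.0496). The similar genes of YEL077C summed to 5418, 5835 and 5812 counts in S3, against 11663, 10066 and 8725 counts in H0, and S3 replicate 2 did not stand out in them.

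Adjacent members were compared by their orientation. In 46 adjacent pairs with both members tested, 6 pairs were both lower and 7 both higher, 28.3% with the same call, against 28% of 5619 adjacent pairs over all chromosomes. Among 12 divergent pairs, in which both genes are read away from each other, 4 were both lower and 2 both higher, 50%, against 30.5% of 1444 divergent pairs over all chromosomes. Of 21 tandem member pairs 19% had the same call, against 28.8% of all tandem pairs, and of 13 convergent member pairs 23.1%, against 24% of all convergent pairs. Whether the member pairs of any orientation depart from the shares of all pairs was not tested. The lower divergent pairs were SOM1 with PCM1 at log2 fold changes of -1.10 and -0.62, RML2 with PAU2 at -0.33 and -1.58, YEL023C with GEA2 at -0.35 and -0.57, and VAB2 with YEA4 at -0.32 and -0.26. The higher divergent pairs were GLY1 with IES6 at 0.97 and 0.87 and MAK10 with AFG1 at 0.21 and 0.33. With total counts MAK10 and AFG1 lost the call at -0.13 and -0.01, while GLY1, IES6 and the genes of the lower pairs kept theirs. In R64 the stretch between their starts measures 964 bases for GLY1 and IES6, 627 bases for SOM1 and PCM1 and 2876 bases for RML2 and PAU2. The median absolute difference between adjacent members was 0.40, against 0.57 over all adjacent pairs.

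Of all tested genes 34.2% were called higher and 36.2% lower, and whether any role group departs from these shares was not tested. These shares hold with TMM factors only. The calls of role groups with total counts cannot be set against them, since the median of all genes then lay at -0.35. Among 7 members with roles in chromatin, the nucleus or chromosomes, 4 were higher in S3, 0 were lower and 3 were not called, with a median log2 fold change of 0.40. The number lower was also 0 at an unadjusted p under 0.05 with edgeR and with the DESeq2 Wald test, and 3 with limma on FPKM. Besides POL5 these were IES6, which encodes a subunit of the INO80 chromatin remodelling complex, SNU13, whose product binds small nuclear and small nucleolar RNAs, and HAT2, which encodes a subunit of a histone acetyltransferase. IES6 had 125, 115 and 120 CPM in S3, against 61.5, 64.7 and 70.7 CPM in H0, with a log2 fold change of 0.87 (SE 0.07, adjusted p = 2.62e-05). SNU13 had 419, 424 and 395 CPM in S3, against 210, 304 and 304 CPM in H0, where replicate 1 was low, with a log2 fold change of 0.60 (SE 0.14, adjusted p = 0.00634). HAT2 stood at 0.40. The 3 without a call were CIN8, a mitotic kinesin gene, at 0.04, EAF5, for a subunit of the NuA4 acetyltransferase, at 0.01 and MMS21, for a SUMO ligase, at -0.25. With total counts POL5 and IES6 remained higher, 3 of the 7 were lower and the median was 0.07.

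Of 10 tested metabolic enzyme genes 3 were higher and 6 lower in S3, with a median of -0.29. GLY1, which encodes threonine aldolase, an enzyme that makes glycine, had the highest mean level of them at 262.8 FPKM. It had 437, 411 and 407 CPM in S3, against 185, 221 and 234 CPM in H0, with a log2 fold change of 0.97 (SE 0.09, adjusted p = 7e-05). FRD1, for a soluble fumarate reductase, stood at 0.55, and YEF1, for an NADH kinase, at 0.40. PCM1, for an enzyme that makes the precursor of N-acetylglucosamine units in chitin and glycans, was lower with 138, 134 and 143 CPM in S3, against 200, 216 and 222 CPM in H0, at -0.62 (SE 0.06, adjusted p = 6.76e-05). UTR4, of the methionine salvage pathway, stood at -0.43 and BUD16, a putative pyridoxal kinase gene, at -0.48, both called. PXP1, for a peroxisomal protein, stood at -0.05 without a call. With total counts 2 of the 10 were higher and 7 lower.

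In the secretory pathway and glycosylation group of 7 members, 4 were lower and 1 was higher, with a median of -0.38. ANP1, which encodes a subunit of a Golgi mannosyltransferase complex, had 74, 80.5 and 76.9 CPM in S3, against 131, 141 and 142 CPM in H0, with a log2 fold change of -0.84 (SE 0.06, adjusted p = 1.68e-05). GTA1 had 90.9, 91.6 and 90.9 CPM in S3, against 158, 145 and 146 CPM in H0, at -0.72 (SE 0.05, adjusted p = 2.24e-05). The libraries of each group lay within a narrow band in both genes. GEA2, for an exchange factor of Arf proteins, stood at -0.57. IRC22, the last member before the centromere, had 103, 106 and 105 CPM in S3, against 124, 141 and 143 CPM in H0, at -0.38 (SE 0.07, adjusted p = 0.00143). GDA1, for the Golgi guanosine diphosphatase, was higher at 0.39. TCA17, for a TRAPP complex component, stood at -0.34 and WBP1, for a subunit of oligosaccharyl transferase, at 0.07, both without a call. With total counts 6 of the 7 were lower and 0 were higher, also at an unadjusted p under 0.05 (edgeR's quasi-likelihood test), while the DESeq2 Wald test with its own factors called 1 higher.

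Of 8 transporter and permease genes 3 were higher, 2 lower and 3 not called, with a median of 0.03. VMA3, which encodes the proteolipid subunit of the vacuolar proton pump, had the highest mean level of the members over all 6 libraries at 888.8 FPKM. In S3 alone SNU13 was higher, at 964.8 ± 43.1 FPKM, against 928.6 ± 40.9 FPKM for VMA3 (SD, n = 3), a difference within the spread of the libraries. VMA3 had 510, 476 and 526 CPM in S3, against 343, 376 and 376 CPM in H0. Its log2 fold change of 0.46 (SE 0.07, adjusted p = 0.000663) was 0.13 and not called with total counts (adjusted p = 0.095). SIT1, for a siderophore transporter, varied widely between libraries of one group, with 375, 283 and 482 CPM in S3, against 269, 381 and 480 CPM in H0. Its log2 fold change was 0.01 (SE 0.25), and the ranges of both groups covered nearly the same levels. SPF1, for a membrane ATPase of the endoplasmic reticulum, stood at 0.28 and YEA4, for a transporter of UDP-N-acetylglucosamine, at -0.26, both called. YEA6, for a mitochondrial NAD transporter, stood at 0.03 without a call. With total counts 0 of the 8 were higher, also at an unadjusted p under 0.05 (edgeR's quasi-likelihood test), while the DESeq2 Wald test with its own factors called 3 higher. In that scaling CAN1, VMA3 and SPF1 lost the call, 3 members were lower, and the median was -0.30.

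The other groups are small. Among 5 members with signalling, transcription, mRNA decay or modification roles, 3 were higher and 2 lower. MIT1, for a regulator of filamentous growth, had 222, 235 and 229 CPM in S3, against 183, 171 and 181 CPM in H0, at 0.36 (SE 0.05, adjusted p = 0.000644), which was 0.03 without a call with total counts. MAK10, for a subunit of an N-terminal acetyltransferase, stood at 0.21 and VAB2, for a subunit of an endosomal complex, at -0.32. The median of this group was 0.21, and its sign flipped to -0.13 with total counts, which gave 1 higher and 2 lower.

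Of 5 mitochondrial members 1 was higher and 2 were lower. TIM9, for a chaperone of the intermembrane space, had 54.2, 54.2 and 55.7 CPM in S3, against 53.4, 61.3 and 61 CPM in H0, and its log2 fold change of -0.10 (SE 0.07, adjusted p = 0.218) did not pass the test. It was -0.16 and passed without H0 replicate 1 (adjusted p = 0.0105), and was -0.07 without H0 replicate 2 (adjusted p = 0.497). RML2, for a mitochondrial ribosomal protein, stood at -0.33 and AFG1, for a mitochondrial ATPase, at 0.33, both called, and ECM10, for a mitochondrial heat shock protein, at -0.12 without a call. In the protease, ubiquitin and chaperone group of 4, UBC8 was higher and RAD23, for a ubiquitin receptor in DNA repair, lower at -0.48. PRB1, which encodes the vacuolar protease B, had 987, 866 and 916 CPM in S3, against 1144, 947 and 1006 CPM in H0. Its groups overlapped, and the log2 fold change was -0.16 (SE 0.09, adjusted p = 0.162), or -0.08 without H0 replicate 1 (adjusted p = 0.239). GIM4, for a prefoldin subunit, stood at -0.10 without a call. With total counts TIM9, ECM10, PRB1 and GIM4 were called lower as well, and AFG1 and UBC8 lost the call, which left 4 of the 5 mitochondrial members and 3 of the 4 in the protease group lower.

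Of 13 members known by their locus tag alone, 8 were tested, and 1 was higher and 4 lower. YEL068C, the one with the highest mean level at 103.9 FPKM, had 25.6, 25.8 and 32.9 CPM in S3, against 38.4, 39.6 and 40 CPM in H0, at -0.49 (SE 0.10, adjusted p = 0.00378). YEL023C was lower at -0.35, YEL025C higher at 0.22, and YEL028W stood at -0.25 without a call. With total counts 0 of the 8 were higher, also at an unadjusted p under 0.05 (edgeR's quasi-likelihood test), against 1 with the DESeq2 Wald test. In that scaling 6 were lower, YEL028W among them, and YEL025C stood at -0.11 without a call. The 5 untested ones were YEL076C-A, with 6 counts over the 6 libraries, YEL076C, with 7 counts and lying inside YEL076C-A, YEL075C, with 1 count, and YEL073C and YEL009C-A, with 0 counts. SDD1, a named gene of less certain role, stood at -0.26 without a call.

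**Figure D3:**
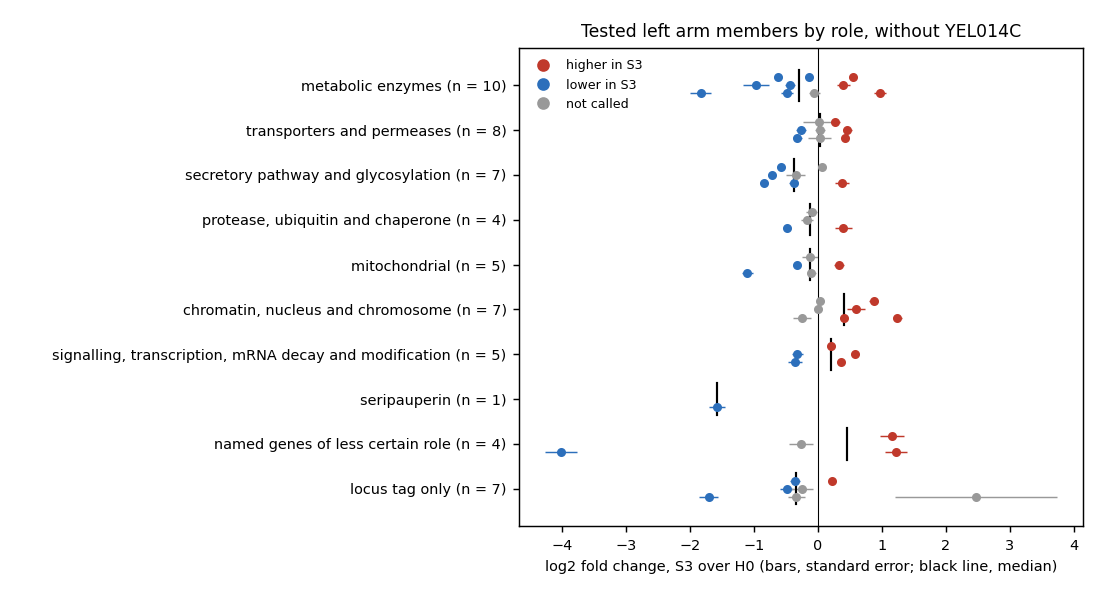
Log2 fold change, S3 over H0 (horizontal axis), of the 58 tested members other than YEL014C, by role group, with bars for the standard error and a black line at the median of each group. Red points are called higher in S3, blue points lower and grey points not called. Of the 7 chromatin, nucleus and chromosome members 4 are called higher and none lower, against 34.2% and 36.2% of all tested genes.

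The members covered a wide range of levels. Their median of mean FPKM was 40.9, against 49.7 for all genes, with 17 members above 100 FPKM and 7 under 1 FPKM. VMA3, SNU13 at 883.8 FPKM and PRB1 at 519.3 FPKM were the highest by the mean over all 6 libraries. The spread between libraries was small for most members, with a median coefficient of variation of 4.87% in S3 and 7.64% in H0 over 58 members.

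**Figure D4:**
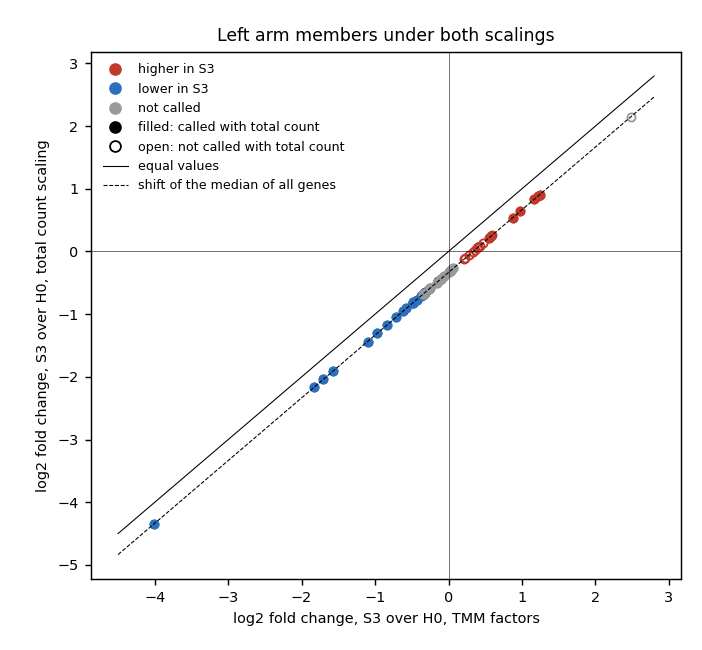
Log2 fold change, S3 over H0, of the tested members other than YEL014C with TMM factors (horizontal axis) and with total count scaling (vertical axis). Colours give the call with TMM factors, filled points are called with total counts, and the points follow the dashed line, which lies below the line of equal values by the shift of the median of all genes from -0.01 to -0.35.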

How the data were processed

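Per the labels and methods, total RNA of 3 libraries of S3 and 3 of H0 was sequenced after library preparation with a kit that does not mark strand. The authors deposited 2 tables of the whole series, one with unnormalized read counts per gene and one with FPKM, in which the count is scaled by the length of the gene and by the library's total. The submitters' processing notes name HTSeq 0.6.1 and DESeq 1.18.0. The aligner, genome build, annotation and strand setting are not given in the sources used here. Of 6442 identifiers, 6436 were found in the gene table of R64, which gave names, order and native sequence, and the 6 unmatched identifiers took at most 0.012% of the counts of a library. Of 79 YEL loci in R64, 78 were listed, and HHY1 was not analysed here.

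Counts were fitted over the whole table in R 4.3.3 by the quasi-likelihood test of edgeR 4.0.16 (TMM factors, low counts removed by filterByExpr, no replicate block, Benjamini-Hochberg adjustment over 5904 genes), and genes were called at an adjusted p under 0.05. The procedure was tested on simulated data in which few genes changed, equally up and down. Such data cannot test the choice of scaling for data in which 70.5% of genes are called. Similar genes were found with BLAST 2.17.0 at 80% identity over 100 bases or more. The alternatives were DESeq2 1.42.0 size factors, its Wald test, total counts, other filters on low counts, limma 3.58.1 on FPKM, a replicate block and each library left out. The members, role groups, motifs and tests were chosen with earlier results of these data known. Genes named with library values were the members at the deletion and at CAN1, URA3, those called beyond a 2-fold change, and the highest of each role group by mean FPKM. The other members named with library values, namely DSF1, HXT13, YEL077C, IES6, PCM1, ANP1, GTA1 and SIT1, were chosen after their values were seen.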

Additional observations from a re-analysis of the deposited data

How the results depend on the processing

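With total count scaling 7 members were higher, 37 lower and 0 higher beyond 2-fold (edgeR, where the median of all genes also shifted), and the median was -0.46. limma on log2(FPKM + 1) gave 7, 37 and 0 with a median of -0.43, and limma on log2(FPKM + 0.1) gave 7, 37 and 0 with a median of -0.44. On the FPKM scale with a pseudocount, fold changes of low genes are understated. These settings kept all 23 of the lower calls and 7 of the 19 higher calls. With each library left out in turn, 18 to 19 members were higher, 19 to 27 lower, 3 to 4 higher and 6 to 7 lower beyond 2-fold, and the median ran from -0.165 to -0.0842. Of 320 values of the members chosen by place, 2-fold change or highest level of a role group, 284 kept their direction and side of the threshold. In this list 29 values lost the call, 7 gained one and none reversed. Other members were not counted there. Among these, MAK10, YEL025C, AFG1 and SPF1 changed sign with total counts and lost their higher call. WBP1, CIN8, EAF5 and YEA6 changed sign and were called lower. Depth limits members such as RMD6 and YEL014C in S3.

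Whether the replicate numbers pair the libraries is not stated in the sources. Deviations of same-numbered libraries correlated at -0.01, 0.08 and 0.08, against -0.11 to 0.04 for differently numbered ones. Such weak values from few libraries cannot decide it. With the replicate number as a block, 19 members were higher and 22 of the 23 were still lower. NPP2 lost its call under the block (adjusted p = 0.0619), as it did with DESeq2 size factors (0.0589), the DESeq2 Wald test (0.0914) and at least 10 counts in every library (0.0529).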
